A study of Mus musculus with 6 samples.

Results

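The regions described here are those whose nearest gene belongs to xenobiotic metabolism, the system of enzymes and transporters by which the liver handles drugs, toxins, bile pigments and steroids. They were taken from a deposited list of regions whose DNA methylation differed between liver tumors and normal livers, by the symbol of the gene with the nearest transcription start site (TSS). Symbols of the cytochrome P450 families Cyp1 to Cyp4, Por, Fmo, Aox, Adh, Aldh, Ces, Ephx, Ugt, Gst, Sult, Nat, Slco and Abcc were taken, without any minimum on the difference, and the folate enzyme gene Aldh1l1 was left out. This gave 69 regions next to 43 genes, of 14176 regions in all.

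Reduced representation bisulfite sequencing (RRBS), which reads cytosine methylation in MspI fragments rich in CpG sites, was applied to 3 macroscopic liver tumors carrying a Ha-ras mutation and to 3 normal livers. All 6 samples came from male C3H/HeN mice of about 74 weeks, F2 offspring from the control arm of a project on arsenic exposure in gestation, kept on standard diet and tap water. The sources do not say whether a tumor and a normal liver shared an animal. The deposited list holds 1 pooled difference per region, tumor minus normal, in percentage points of methylation, and no value per sample, so no spread between the 3 tumors or between the 3 normal livers could be set beside it. A positive difference is called a gain in tumors and a negative one a loss. Each listed region differs by at least 20 points and holds at least 3 measured CpG cytosines, of which at least 1 was called a differentially methylated cytosine (DMC) from the reads. The tumors and livers were sampled as bulk tissue, in which a change within cells and a change in the mix of cells cannot be told apart.

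Xenobiotics are first oxidised or hydrolysed, mainly by cytochromes P450 that draw electrons from P450 oxidoreductase (Por), and also by flavin monooxygenases, aldehyde oxidases, aldehyde dehydrogenases and carboxylesterases. The products are then joined to glucuronic acid, glutathione, sulfate or acetyl groups by transferases. Slco genes encode organic anion transporters that mediate uptake across the membrane, and many Abcc genes encode pumps that export conjugates into bile or blood. Many of these genes, though not all, are active in hepatocytes, and nuclear receptors such as Nr1i2 (PXR) and Nr1i3 (CAR) are known to control a part of them.

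The regions with the largest gains and losses are short, and their CpG sites are few. The sequences of the 5 largest gains are shown first, read from the C57BL/6J reference genome (GRCm38, the same build as mm10, RefSeq) on the plus strand, with CpG dinucleotides in capitals. The mice studied were C3H, so single bases may differ from these. Where a region ended inside a CpG, the missing base was added.
Por, chr5:135673192-135673257: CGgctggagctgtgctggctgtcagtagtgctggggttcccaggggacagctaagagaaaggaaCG
Ces2e, chr8:104908197-104908310: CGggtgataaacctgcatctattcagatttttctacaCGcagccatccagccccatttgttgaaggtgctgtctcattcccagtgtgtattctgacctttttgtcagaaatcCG
Cyp3a25, chr5:146005723-146005929: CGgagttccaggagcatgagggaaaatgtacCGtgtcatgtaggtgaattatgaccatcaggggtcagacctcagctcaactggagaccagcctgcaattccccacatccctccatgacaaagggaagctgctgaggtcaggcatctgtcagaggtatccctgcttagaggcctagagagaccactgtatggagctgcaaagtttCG
Ugt1a7c, chr1:88095299-88095383: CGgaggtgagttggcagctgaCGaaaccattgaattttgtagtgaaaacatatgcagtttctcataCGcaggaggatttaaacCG
Aox3, chr1:58089371-58089538: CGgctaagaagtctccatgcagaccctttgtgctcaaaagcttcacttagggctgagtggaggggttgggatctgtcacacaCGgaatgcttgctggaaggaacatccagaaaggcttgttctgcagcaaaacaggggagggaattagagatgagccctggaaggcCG
Between 2 and 4 CpG dinucleotides stand behind each of these gains. The 5 largest losses by gene are given in the same way.
Gstt1, chr10:75794108-75794286: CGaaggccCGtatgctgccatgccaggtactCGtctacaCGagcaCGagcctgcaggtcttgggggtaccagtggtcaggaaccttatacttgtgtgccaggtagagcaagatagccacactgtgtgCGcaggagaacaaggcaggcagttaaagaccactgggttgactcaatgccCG
Slco3a1, chr7:74290578-74290609: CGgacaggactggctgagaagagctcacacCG
Ugt3a1, chr15:9275741-9275817: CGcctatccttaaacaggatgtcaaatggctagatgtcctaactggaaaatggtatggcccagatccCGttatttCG
Sult2b1, chr7:45769945-45770109: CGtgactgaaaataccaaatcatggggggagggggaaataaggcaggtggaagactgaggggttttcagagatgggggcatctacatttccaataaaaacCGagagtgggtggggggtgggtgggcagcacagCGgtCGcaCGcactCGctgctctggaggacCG
Nat1, chr8:67261141-67261246: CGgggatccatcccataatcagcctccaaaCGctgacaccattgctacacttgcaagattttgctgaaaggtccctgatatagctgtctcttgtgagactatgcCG
The Gstt1 and Sult2b1 regions hold 7 CpG dinucleotides each, and the Slco3a1 region 2. A last sequence, chosen after its values were seen, overlaps a coding exon of Cyp2f2 and is the only member gain that overlapped a CpG island.
Cyp2f2, chr7:27129777-27129856: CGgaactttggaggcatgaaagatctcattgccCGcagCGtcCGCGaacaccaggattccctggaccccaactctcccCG
It packs 6 CpG dinucleotides into 80 bases.

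Regions next to xenobiotic genes gained methylation in the tumors more often than regions elsewhere in the list. Of the 69 regions, 25 were gains (36.2%, exact 95% interval 24.99 to 48.7%) and 44 were losses, against 14.8% gains among the 14107 other regions (14.2 to 15.4%) and 14.9% over the whole list. The median difference was -22.7 points for these regions (95% interval -24.4 to -20.2) and -23.9 points for all other regions. The 43 genes split into 20 with gains only, 21 with losses only, and 2, Abcc3 and Slco2a1, with both. The intervals cover the counting of regions and not the variation between animals, and regions next to 1 gene are not independent.

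The higher share lay with the enzymes. Of 40 regions next to enzyme genes, 21 were gains (52.5%, 36.1 to 68.5%). Next to transporter genes 4 of 29 were (13.8%, 3.89 to 31.7%), which is near the 14.8% of all other regions. Cytochrome P450 genes had the highest share of the 10 classes, 12 gains in 15 regions (80%, 51.9 to 95.7%). Slco transporter genes had the lowest share among classes with more than 3 regions, 1 gain in 20 (5%, 0.127 to 24.9%), an interval that holds the 14.8% of other regions. With 1 region per gene, 1 of 5 Slco genes had a gain (20%), and at 30 points or more 1 of 2 Slco regions was one (50%). The median difference was 28.1 points next to P450 genes and -24.6 points next to Slco genes. No region in the list was nearest to an Adh or Ephx gene.

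**Figure D1:**
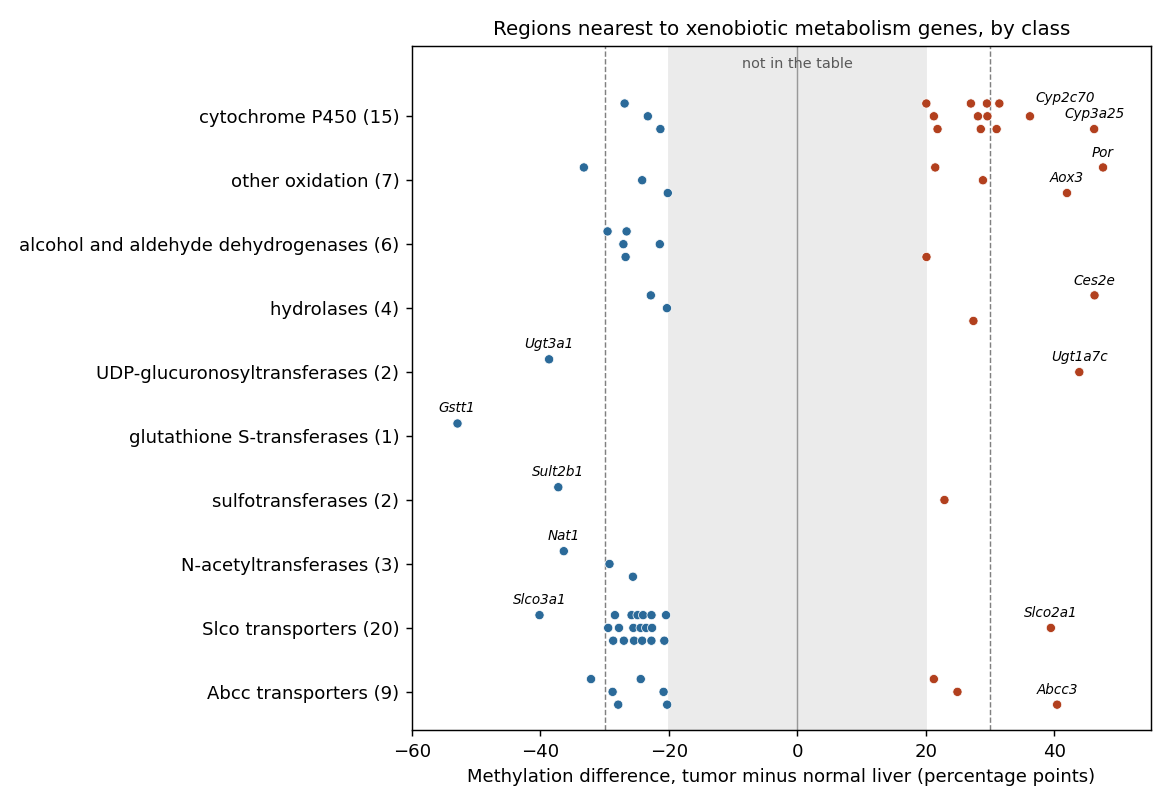
Each point is 1 of the 69 regions, placed by its methylation difference, tumor minus normal liver, in percentage points, with 1 row per class, the number of regions in parentheses, gains in red and losses in blue. The grey band marks differences under 20 points, which the list does not hold, the dashed lines mark 30 points, and the P450 row has 12 of 15 points on the gain side while the Slco row has 19 of 20 on the loss side.

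Differences of 30 points or more were gains more often than those elsewhere in the list. At 30 points or more, the threshold at which the study called regions, there were 17 of the 69 regions (24.6%, against 23.5% over the whole list), of which 10 were gains (14.5% of the 69, against 5.57% over the list) and 7 were losses (10.1%, against 18%). The share at this size was thus near the background, and the split between gains and losses was not. Gains were 58.8% of the 17 (32.9 to 81.6%), against 23.5% of other regions of this size. At 40 points or more, 6 of 8 regions were gains (75.0%, 34.9 to 96.8%), against 44.2% of 717 other regions, which the interval holds. Between 20 and 25 points, 8 of 28 were gains (28.6%, 13.2 to 48.7%), against 11.6% of 6844 other regions.

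Among P450 genes, the largest gain was next to Cyp3a25, of the CYP3A subfamily that oxidises many drugs and steroids. It reached 46.2 points with all 3 measured cytosines called DMCs, 3689 bp downstream of the TSS in an intron of the gene. Cyp2c70, whose enzyme makes muricholic acids from other bile acids in mice, had a gain of 36.2 points in intergenic sequence 3868 bp upstream of its TSS. A second region listed for it gained 28.6 points but lay 41177 bp upstream, in an intron of Pdlim1. Both Cyp2c70 regions were thus gains, and neither lay in the gene.

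Cyp4f14 encodes a hydroxylase of leukotrienes and other fatty acids, and a coding exon of it gained 31.5 points (5 of 6 cytosines DMCs). Cyp2u1, another fatty acid hydroxylase gene, gained 31.0 points in an intron 4221 bp downstream of its TSS, on a CpG island shore (5 of 7 DMCs). These were the last of the 4 P450 regions at 30 points or more, and all 4 were gains.

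Just under that size stood genes of the CYP2 family. A region in a coding exon of Cyp2f2, whose enzyme bioactivates naphthalene, gained 29.6 points, with 6 of its 10 cytosines DMCs. Cyp2b10, a classical target of the receptor CAR that phenobarbital induces, gained 29.5 points 5225 bp upstream of its TSS (6 of 8 DMCs). Cyp2d13 gained 28.1 points in an intron, and Cyp2c55 gained 27.0 points 17488 bp upstream. The smallest P450 gains, from 20.1 to 21.8 points, were next to Cyp4v3, Cyp2d10 and Cyp2t4.

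The 3 P450 losses were all smaller than 30 points. The largest was listed for Cyp4f17 at -26.9 points, although the region overlapped a coding exon of Cyp4f39 next door. Cyp3a41a, a gene known for expression in female liver, had a loss of -23.3 points 45140 bp downstream of its TSS, in intergenic sequence that was 98.3% repeat-masked. Cyp2b9, also known for higher expression in female mice, had a loss of -21.3 points in an intron. Next to Cyp2c genes on chromosome 19, 3 of 3 regions across 1239 kb were gains, with no other listed region between them. Next to Cyp2 genes on chromosome 7, 3 of 4 across 1249 kb were gains. The Cyp2d regions on chromosome 15 were gains in 2 of 2, and the Cyp3a and Cyp4f regions in 1 of 2 each.

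Por, the electron donor of every microsomal P450, had the largest gain of all 69 regions. It was 47.6 points, with all 3 cytosines DMCs, in intergenic sequence 15957 bp upstream of the TSS. Its 3 cytosines came from 2 CpG dinucleotides, the first and last of the printed sequence. A further region inside an intron of Por, listed for the microRNA gene Mir7034 and so outside the selection, gained 34.5 points with 3 of 3 DMCs. These 2 regions were thus both gains. The listed region nearest to the upstream one, 24.0 kb away and listed for Rhbdd2, had a loss of -29.5 points.

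Aldehyde oxidases are molybdenum enzymes that oxidise aldehydes and nitrogen heterocycles, and their genes stand side by side on chromosome 1. The 2 regions listed for Aox3 gained 42.0 and 28.9 points, and the region listed for Aox1 gained 21.5 points. All 3 lay in introns of Aox1, at 59.4, 50.5 and 12.25 kb downstream of its TSS. One more region of the cluster, listed for Aox2 but within a coding exon of Aox4, had a loss of -24.2 points. Fmo9, of the flavin monooxygenase family, had losses of -33.2 points (7 of 9 cytosines DMCs) and -20.2 points, both upstream in intergenic sequence.

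Aldehyde dehydrogenase genes had 5 losses in 6 regions (83.3%), near the 85.2% of losses among all other regions. The largest was in an intron of Aldh9a1, an enzyme of carnitine and polyamine metabolism, at -29.6 points. Next came Aldh1a2, which makes retinoic acid, at -27.1 points in an intron, and Aldh1a3, which also makes retinoic acid, at -26.7 points. That Aldh1a3 region of 702 bp overlapped a coding exon and held 20 measured cytosines, the most of any region here, of which 9 were DMCs. A second Aldh1a3 region 44522 bp upstream had -21.4 points, and a region of -26.6 points listed for Aldh1a7 lay in a coding exon of Tmc1. Outside the selection, a region in an intron of Aldh1a3, listed for Lrrk1, had a loss of -29.9 points. The only gain, 20.1 points, was listed for the proline catabolism gene Aldh4a1 and lay at the 3′ end of Iffo2.

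Carboxylesterases cleave ester and amide drugs. Ces2e had a gain of 46.3 points with all 4 cytosines DMCs, 17950 bp upstream of its TSS, the largest outside the oxidation classes. Ces4a gained 27.4 points 14042 bp upstream, while the 2 regions listed for Ces5a had losses of -22.8 and -20.3 points, 93401 and 55759 bp upstream. The smaller loss overlapped a CpG island.

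The conjugating enzymes had few regions, but these included the largest loss and 1 of the 5 largest gains. In the UDP-glucuronosyltransferase locus Ugt1a, alternative first exons that each encode a substrate-binding part are joined to shared later exons. The first exon of Ugt1a7c gained 43.9 points, with 5 of 6 cytosines DMCs, and began 298 bp downstream of the TSS. This coding exon lies in introns of Ugt1a8, Ugt1a9 and Ugt1a10, and it was the only one of the 69 regions within 2000 bp of a TSS (1.45%), against 875 of the 14107 other regions (6.203%). Ugt3a1, whose enzyme family uses sugars other than glucuronic acid, had a loss of -38.7 points 4013 bp upstream, with all 3 cytosines DMCs.

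Gstt1, a theta-class glutathione S-transferase that conjugates small halogenated compounds, had the largest loss of the 69 regions. It was -53.1 points in a coding exon, 4298 bp downstream of the TSS, and all 7 cytosines were DMCs, more than in any other region here in which every cytosine was one. No other Gst gene was nearest to a listed region, but a region listed for BC021614 overlapped a coding exon of Gstp3. That region had a loss of -21.6 points, with 3 of 8 cytosines DMCs. Of 22 protein-coding genes in RefSeq whose symbols fit the Gst selection, 1 (4.55%) was nearest to a region, against 24.4% of protein-coding genes outside the selection.

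Sult2b1, which sulfates cholesterol, had a loss of -37.2 points 10391 bp upstream (5 of 6 DMCs), whereas a coding exon of Sult4a1, a brain member of the sulfotransferase family, gained 22.9 points (2 of 5 DMCs). Nat1 encodes an arylamine N-acetyltransferase, and its 3 regions were losses of -36.4, -29.3 and -25.6 points. All 3 lay far upstream, at 229512, 125378 and 130853 bp, in intergenic sequence that was 100%, 70.2% and 59.7% repeat-masked.

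The Slco losses came mostly from 3 genes with many regions each. Slco3a1 had 8 regions, all losses, spread over 603 kb of chromosome 7. Their differences ran from -40.2 to -22.7 points with a median of -25.5 points, and 5 of them lay in introns of the gene. The largest of them, -40.2 points with 3 of 3 DMCs, was 264172 bp downstream of the TSS, and the other 7 were all smaller than 30 points.

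Slco6d1 had 5 losses, from -27.8 to -22.6 points, 1 of them in its own intron, over 741 kb of chromosome 1. Slco5a1 had 4 losses, from -29.5 to -20.4 points, of which 2 lay at the 3′ end of Sulf1 and 1 in an intron of Slco5a1. The last 3 Slco regions belonged to a pair of genes. Slco2a1 encodes a prostaglandin transporter, and its 2 regions went opposite ways, 39.5 points 30299 bp upstream and -24.2 points 57254 bp upstream. Slco4a1 had a loss of -23.5 points. The Slco2a1 gain was the only one among 20 Slco regions.

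Of the 9 Abcc regions, 3 were gains and 6 were losses. Abcc3 encodes MRP3, which exports conjugates from hepatocytes into blood, and 2 regions in its introns gained 40.5 points (5 of 7 DMCs) and 24.9 points (2 of 4 DMCs), at 6774 and 4035 bp downstream of the TSS. The last region listed for it, -20.8 points, lay upstream in a coding exon of Cacna1g. Abcc2 encodes MRP2, the pump that exports bilirubin glucuronides into bile, and it gained 21.3 points 2454 bp upstream of its TSS on 1 DMC of 4 cytosines.

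The Abcc losses were next to other members of the family. Abcc8, which encodes a regulatory subunit of a potassium channel and not a drug pump, had losses of -32.1 and -20.3 points, both upstream. Abcc12 had losses of -28.8 and -24.4 points. Abcc4, which encodes the blood-side pump MRP4, had a loss of -27.9 points in an intron 2585 bp downstream of its TSS, with 5 of 8 cytosines DMCs.

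**Figure D2:**
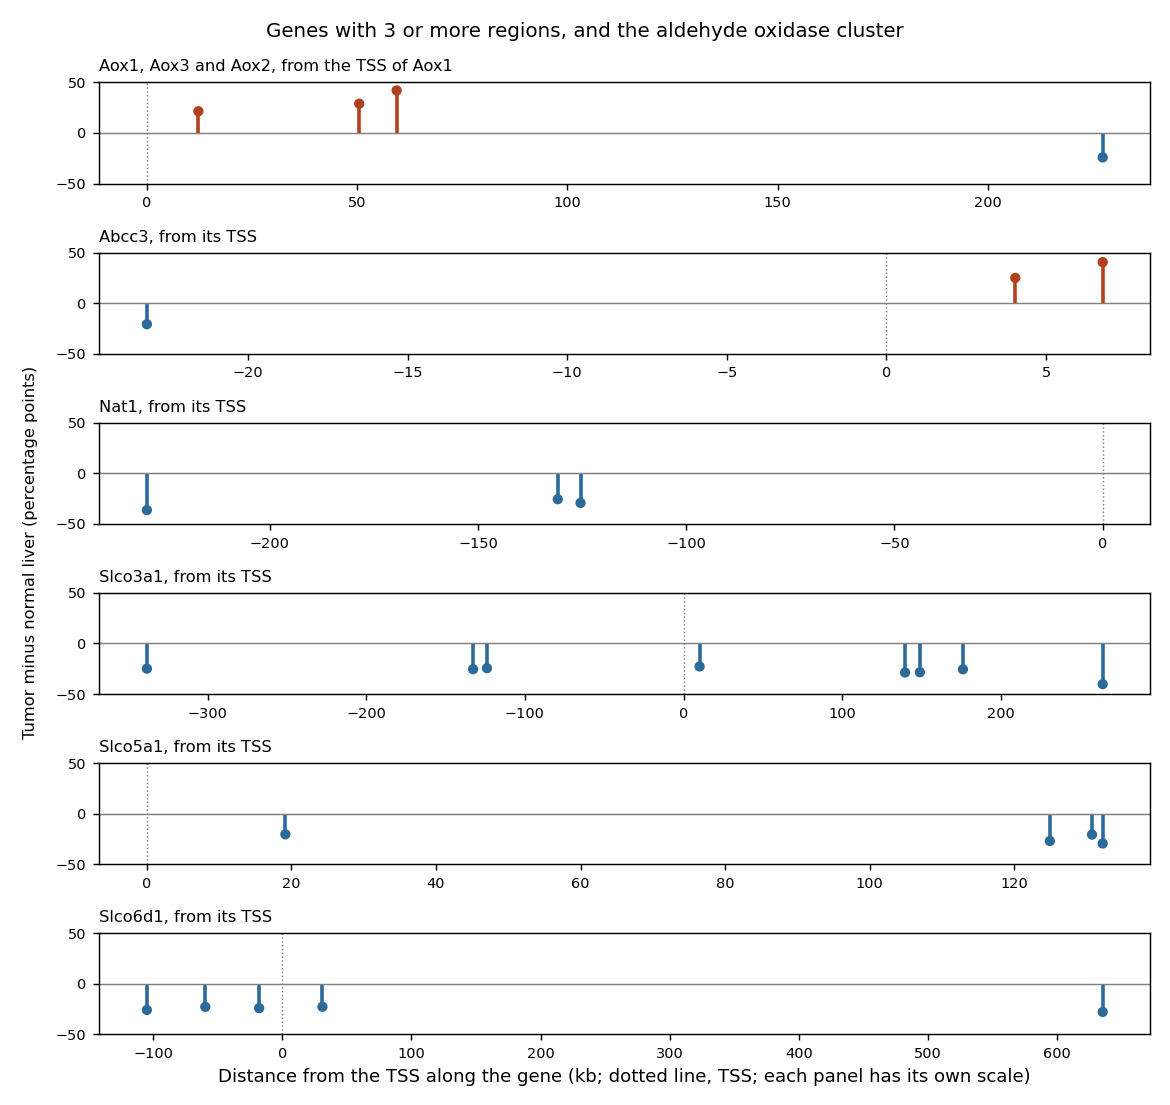
Methylation difference in percentage points, tumor minus normal liver, of each region against its distance in kb along the gene from the TSS (dotted line), for the aldehyde oxidase genes and the 5 genes with at least 3 regions, gains in red and losses in blue. The 3 gains in Aox1 lie within 59.4 kb of its TSS, the 2 Abcc3 gains lie just downstream of the TSS, and every region of Nat1, Slco3a1, Slco5a1 and Slco6d1 is a loss.

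The gains were close to genes. Within 20 kb of the listed TSS, 21 of 33 regions were gains (63.6%, 45.1 to 79.6%), against 25.8% of 4566 other regions (24.6 to 27.1%). Beyond 20 kb, 4 of 36 were gains (11.1%, 3.11 to 26.1%), against 9.56% of 9541 other regions (8.98 to 10.2%). Beyond 100 kb, 0 of 16 were gains (exact interval up to 20.6%), against 3.63% of 4633 other regions. The intervals of members and other regions did not overlap within 20 kb and overlapped beyond it.

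Within that distance the intervals of the enzyme and transporter genes overlapped. Next to enzyme genes, 18 of 24 regions within 20 kb were gains (75.0%, 53.3 to 90.2%), and next to P450 genes 11 of 12 (91.7%, 61.5 to 99.8%). The single exception was the region listed for Cyp4f17 and lying in Cyp4f39, 19438 bp upstream. Next to transporter genes, 3 of 9 regions within 20 kb were gains (33.3%, 7.49 to 70.1%), and none of them was an Slco region. The median distance was 9822 bp for the 25 gains and 50449.5 bp for the 44 losses, against 15831 bp and 58646 bp for gains and losses elsewhere.

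**Figure D3:**
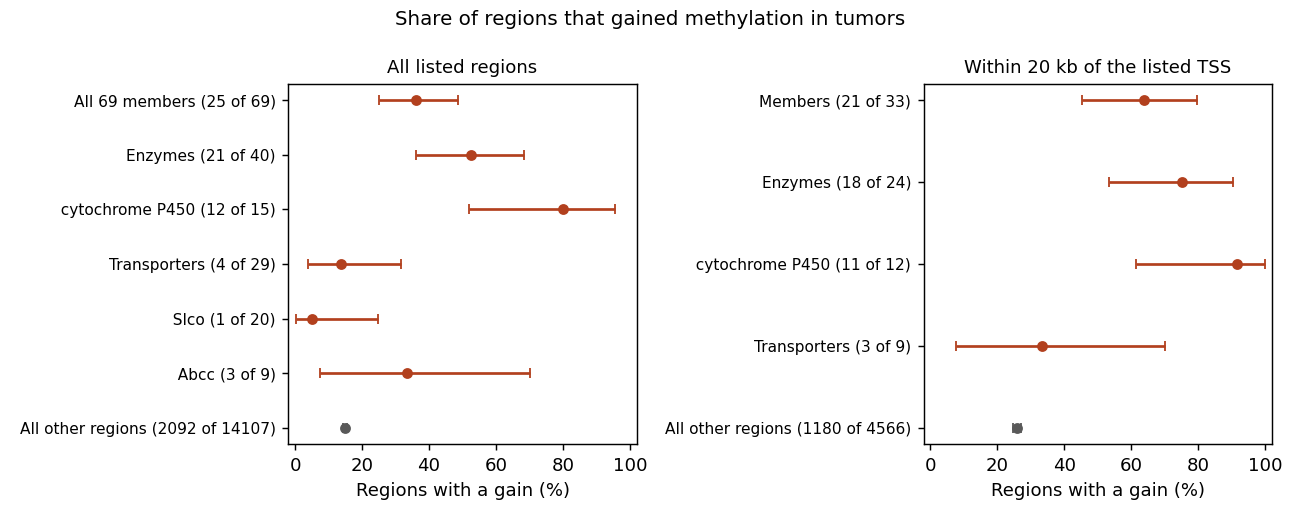
Share of regions that gained methylation in tumors, in percent, for all listed regions (left) and for those within 20 kb of the listed TSS (right), with the number of gains and of regions in each label and exact 95% intervals as bars. P450 genes stand highest of the groups drawn in both panels (80% and 91.7%), all other regions stand at 14.8% and 25.8%, and Slco genes stand at 5%.

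**Figure D4:**
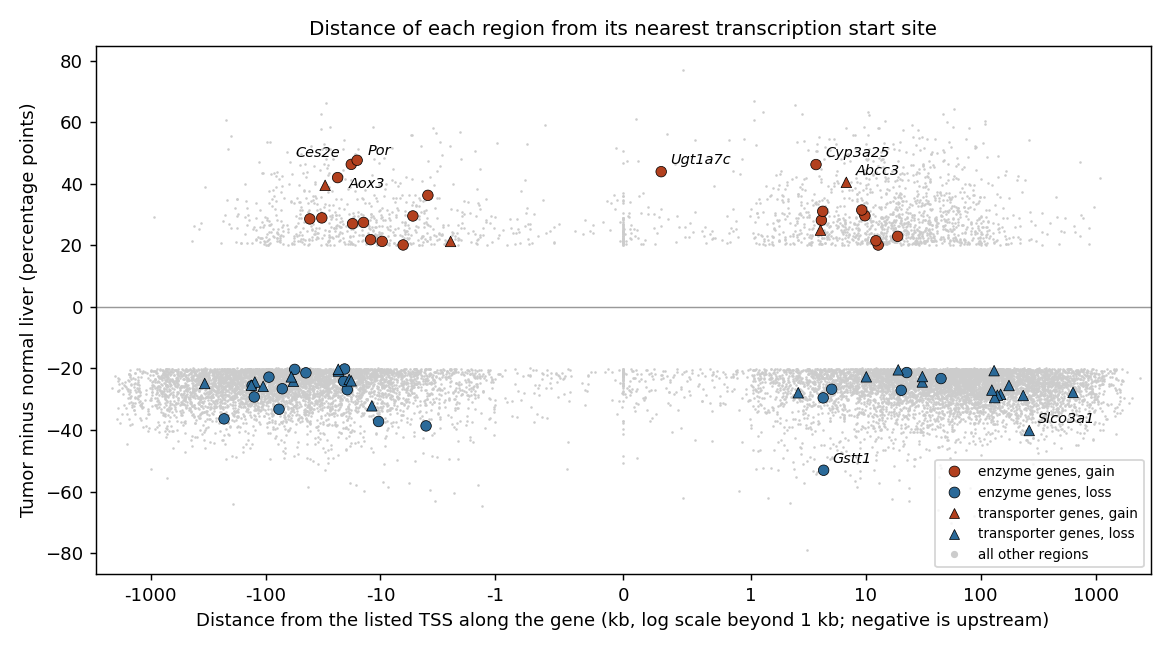
Methylation difference in percentage points, tumor minus normal liver, against distance in kb from the listed TSS along the gene (log scale beyond 1 kb, negative upstream), for enzyme genes (circles), transporter genes (triangles) and the other 14107 regions (grey). No region lies between -20 and 20 points, member gains crowd within about 20 kb on either side, and Ugt1a7c is the only member inside 2 kb.

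The nearest gene was often not the gene a region lay in. Of the 69 regions, 25 lay in the listed gene (36.2%, against 29.6% of other regions), 33 were intergenic (47.8%, against 54.8%), and 11 lay in a different gene. Among the gains, 11 of 25 lay in the listed gene and 4 in a different one. Counting the opposite way, 7 regions lay in a gene of the selection but were listed for a gene outside it, and 1 of these 7 was a gain, the one in Por. Of the losses, 3 lay in Abcc8 and were listed for Kcnj11. The others lay in Aldh1a3 (-29.9 points), Abcc4 (-26.9 points) and Gstp3 (-21.6 points).

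CpG islands held few of these regions. Of the 25 gains, 1 overlapped an island (4%), against 22.3% of 2092 gains elsewhere, and 3 lay on island shores (12.0%, against 21.7%). The gains had a median of 4 measured cytosines, against 7 in gains elsewhere, and a median ratio of observed to expected CpG of 0.208, against 0.288. Among losses, 1 of 44 overlapped an island (2.27%, against 6.97% elsewhere), and the median CpG ratio was 0.219, against 0.242. The share of cytosines called DMCs was close to that elsewhere, 59.7% in gains (58.7% elsewhere) and 52.0% in losses (51.6% elsewhere).

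Some regions lay in sequence with near copies. Of the 69, 18 had another place in the genome aligned at 90% identity or more, 3 of them gains (the second Cyp2c70 region, Cyp3a25 and Ces4a) and the other 15 losses. All 3 Nat1 regions, all 5 Slco6d1 regions and 3 of the 8 Slco3a1 regions were among them, and the Nat1 region printed above had 36719 other alignments, the best at 97.0% identity. The Ugt3a1 region printed above had 60 other alignments, the best at 96.9% identity. The Cyp3a25 region was 53.4% repeat-masked and had 1 other place, at 92.6% identity. At least 50% of the region was repeat-masked in 4 of 25 gains (16.0%, against 5.26% of gains elsewhere) and in 15 of 44 losses (34.1%, against 31.1%). Reads were kept by the authors only at a unique best hit, and the part of copies in these values was not tested.

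Motifs of xenobiotic response factors were counted on both strands in 300 bases centred on each region. The core GCGTG, to which the aryl hydrocarbon receptor binds, was present in 20 of 69 windows (29.0%, 18.7 to 41.2%), against 20.6% of all 14176 windows. In the windows of the 25 gains it was present in 5 (20%, 6.83 to 40.7%), against 27.6% of all gains. In those of the 44 losses it was present in 15 (34.1%, 20.5 to 49.9%), against 19.4% of all losses. The core TGACNNNGC of the antioxidant response element was present in 5 of 69 (7.25%), against 11.9%. The MspI site CCGG was present in 67 (97.1%), against 97.9%. The 3 patterns were counted apart, so that a window could hold several. A match is a string of letters and not a measured binding site.

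Listed regions were no more common at xenobiotic genes than at others. Of 233 protein-coding genes in RefSeq whose symbols fit the selection, 42 (18.03%) had a listed region as its nearest gene, against 24.4% of 21663 other protein-coding genes. Cytochrome P450 genes of the families counted here had one in 13 of 80 (16.3%), aldehyde oxidase, Fmo and Por genes in 5 of 12 (41.7%), Slco genes in 5 of 14 (35.7%) and Abcc genes in 5 of 10 (50%). RRBS reads only part of each gene's CpG sites, and which of these genes were covered was not analysed here.

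Regions next to other genes of the system, regulators among them, were also more often gains than losses. A list of 74 genes outside the selection (regulators, cofactor enzymes, other conjugating, oxidising and hydrolysing enzymes, and other transporters) had 39 regions next to 21 genes, 27 gains and 12 losses (69.2% gains, 52.4 to 83.0%, against 14.9% over the whole list), and all 11 of those at 30 points or more were gains. Regulators had 16 gains in 22 regions. A coding exon of Nr1i3, the receptor CAR, gained 40.1 points with 8 DMCs. Onecut1, a liver transcription factor, gained 34.7 points in intergenic sequence with 20 DMCs, and Nr1h4, the bile acid receptor FXR, gained 33.4 points in an intron. Foxa3, a pioneer factor of hepatocyte genes, gained 32.3 points, and the 3′ untranslated region of Rxra, the shared partner of these receptors, gained 30.7 points.

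Gains of 30 points or more came from the other roles in the list as well. Papss2, which makes the sulfate donor, gained 45.8 points in an intron. Gnmt, a glycine methyltransferase abundant in liver, had 2 regions at 42.5 and 40.1 points, both overlapping coding exons of Pex6. Xdh, which encodes xanthine oxidoreductase, gained 32.2 points in a coding exon and 30.1 points in an intron. A region listed for the sterol exporter gene Abcg8 gained 35.2 points and lay in a coding exon of Abcg5. A coding exon of Slc22a7, an organic anion transporter, gained 26.3 points 298 bp from the TSS, whereas the region at the TSS of Slc10a1, the bile salt uptake transporter, had a loss of -21.5 points. The 12 losses in the list were all smaller than 30 points.

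Markers of liver cell types were looked up in the same way, since the data hold no expression by which the tissue label could be checked. Of 12 regions next to 5 endothelial marker genes, 0 were gains (exact interval up to 26.5%), and of 8 next to 6 stellate and fibroblast genes, 1 was. Cholangiocyte markers had 0 gains in 4 regions, leukocyte markers 1 gain in 1 region (Csf1r, 23.4 points), and hepatocyte markers 4 gains in 8. Over all 48 marker genes, 6 of 33 regions were gains (18.2%, 6.98 to 35.5%), near the 14.9% of the whole list. The part of the cell mix in the differences next to xenobiotic genes was not tested.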

How the data were processed

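The authors trimmed paired reads with Trim Galore, aligned them to mm10 at a unique best hit with Bismark, and counted C and T reads per cytosine, each strand apart, with methylKit, at 10 reads or more. DMCs came from their logistic regression at 25 points or more, regions from eDMR, and nearest RefSeq TSSs from bedtools 2.25.0, per the submitters' processing notes. No source used here gives the other tools' versions. The values the authors deposited are pooled differences in percent methylation, in points, with counts of cytosines and DMCs. The list carries no value per sample, and the depth behind a value is unknown beyond 10 reads.

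Starts were counted from 0 in the deposited list, and 1 was added, which moved the share of starts at a CpG to 100%, against 13.9% before. All 69 regions matched a RefSeq accession of the same symbol in GRCm38, and the listed TSS equalled the start of that accession for 79.7% of them. It did not for the regions of Por, Abcc3, Nat1, Slco2a1, Ces5a, Sult2b1, Cyp4f17 and Cyp4v3. Distances for these genes are from the TSS as listed. A CpG island was any merged run of 300 bp or more made of 200 bp windows reaching 50% GC and an observed to expected CpG ratio of 0.6, and its shores were the 2000 bp on either side. A region was placed in a coding exon where any part of it overlapped one, and in an intron only where it overlapped no exon. Other places in the genome were sought with blastn 2.17.0, for the region or the 200 bp around it, at 90% identity over 80% of the length. Shares carry exact (Clopper-Pearson) 95% intervals and medians binomial order-statistic ones, computed with scipy 1.17.1 in Python 3.11.15 and tested on simulated data. No test between groups of samples was possible.

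The selection of genes, the gene lists, motifs and settings were chosen with earlier results of these data known. Genes were named with values at 30 points or more, within 2000 bp of a TSS, at the largest gain and loss of each class, and where 3 or more regions were listed. The remaining regions are given to complete their class. Genes of the pathway list were named at 30 points or within 2000 bp. One result that this rule would name is not reported here.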

Additional observations from a re-analysis of the deposited data

How the results depend on the processing

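The gain share of 36.2%, the median of -22.7 points and the 21.4 points by which the gain share stood above that of all other regions were recomputed with other settings. The gain share was 41.5% at 25 points or more, 58.8% at 30 points and 75.0% at 40 points. Other regions had 17.9%, 23.5% and 44.2% at these sizes. Within 20 kb of the TSS it was 63.6%, against 25.8%, and within 2 kb 100% (1 region), against 33.4%. With 1 region per gene it was 51.2%, against 21.1%, an excess of 30.1 points. At 10 or more CpG cytosines it was 33.3% (1 of 3 regions), against 31.1%. Without the Slco transporters, a setting chosen after seeing the data, it was 49.0%, against 14.8%. The median was -25.8 points at 25 points or more, and it turned positive at 30 points (31.5), at 40 points (43.0), within 20 kb (21.5), within 2 kb (43.9) and with 1 region per gene (20.1). The excess over other regions was 35.3 points at 30 points or more, 37.8 within 20 kb, 66.6 within 2 kb, 34.2 without the Slco transporters, and 2.23 at 10 or more CpG cytosines, which left 3 regions. With at least 5 cytosines, at least 3 DMCs, assignment to the gene a region lies in, regions under 50% repeat-masked, or (chosen after seeing the data) without regions that have another place in the genome, the gain share was between 34.8 and 43.1%. Over the settings that left any region of the class, the P450 gain share was from 75% (8 regions, at least 5 cytosines) to 100%. The 100% stood at 30 points (4 regions), at 40 points (1 region) and at 10 or more cytosines (1 region). The Slco gain share was from 0% to 50% (at 30 points, 2 regions). The 0% stood at 40 points (1 region), at least 5 cytosines (6 regions), at least 3 DMCs (5 regions) and within 20 kb (4 regions). The list holds no difference under 20 points in size, so the median turned positive only where gains exceeded 50% of the regions. Why the gain shares shifted was not tested.

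The replicates could not be left out in turn, since the list pools them. No paired analysis was possible because the list holds no value per sample. With few cytosines per region and no depth given, a difference of 1 region rests on its reads alone.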
